A study of Mus musculus with 5 samples.

Results

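Mouse embryonic fibroblasts (MEFs) of the group named 4n 2i were compared with those of the group named 2n 2i, both profiled on whole-transcript microarrays. These were 2 of the 5 arrays of the study, chosen by their sample titles, and 9035 of the 19938 genes measured by a probe set of 1 gene could be compared. Both MEF groups carried the same background, the F1 of a cross between the 129X1/SvJ and MSM/Ms strains, as did the control MEFs and the embryonic stem cells (ESCs, groups 2i and S) on the other arrays. The title of the 2n sample carried the numbers 15 and 1 and that of the 4n sample 2 and 3, and the labels do not say what these numbers stand for. The labels give no sex, age, passage or treatment of the MEFs, and 2n, 4n and 2i are used here as names only. The study's title concerns female ESCs that keep DNA methylation inherited from the gametes, so the question put to this pair was taken to be how far the fibroblasts of the 2 kinds differ, at imprinted genes and elsewhere.

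Each group had 1 array. No replicate exists, no difference could be tested, and each statement below is on the size of a difference between these 2 arrays. Values are the linear intensity units that the authors deposited, and differences are of log2(value + 1), 4n minus 2n. Genes entered the comparison if at least 1 of the arrays read above a floor, set for each array at the middle value of its gene-named probe sets (231 intensity units on 2n, 235 on 4n). How much of a reading under the floor is background is unknown, and folds that involve one are uncertain in size. The 2 arrays held exactly equal values in 37.4% of all probe sets. Equality was commonest among dim probe sets, at 70.7% in the second of 10 bins of brightness against 8.67% in the ninth. Equal values were treated as uninformative and left out, 1216 genes past the floor among them.

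MEFs are a mixed culture of connective tissue cells grown out of the embryo. They secrete collagens, elastic fibres and proteoglycans, respond to serum and growth factors through the ERK pathway, and can carry along other cells of the embryo such as macrophages, mesothelium and nerve-associated glia. Imprinted genes are expressed from 1 parental allele according to DNA methylation laid down in the egg or the sperm, and several of them control fetal growth through insulin-like growth factors.

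The 4n array showed more genes high than low at large sizes. Of 9035 genes compared, 342 were at least 2-fold higher on the 4n array (3.79%) and 242 at least 2-fold lower (2.68%), together 6.46%. At 4-fold the counts were 93 higher and 22 lower. By any amount, however, the balance lay the other way, with 62.3% of genes lower on the 4n array, and the median difference was -0.10. Centred on that median, 401 genes were higher and 178 lower, so that 69.3% of calls were higher instead of 58.6%. Of the higher genes 151 lay below the floor on the 2n array, and of the lower genes 72 lay below the floor on the 4n array. Measured the same way, the 2n array stood nearer to the control MEF array (SD of the log2 differences 0.35, 2.41% of genes at least 2-fold apart) than to the 4n array (0.58), and the 4n array differed from the control array with an SD of 0.70 (9.94%).

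Both arrays carried the profile of fibroblasts. All 25 fibroblast markers listed were past the floor on each, and the 2 arrays were close in the collagen genes Col1a1 (log2 difference 0.10) and Col1a2 (0.17) and in Fn1, which encodes fibronectin (15325 units on 2n, 15335 on 4n). The defining genes of pluripotency were near the bottom of the scale. Pou5f1 had 66.4 and 67.8 units and Nanog 95.1 and 102, on 2n and 4n in that order, and only Klf2, Klf4, Klf5 and Tbx3 of 19 such genes passed the floor. None of 7 Y-linked genes reached it on either array.

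**Figure D1:**
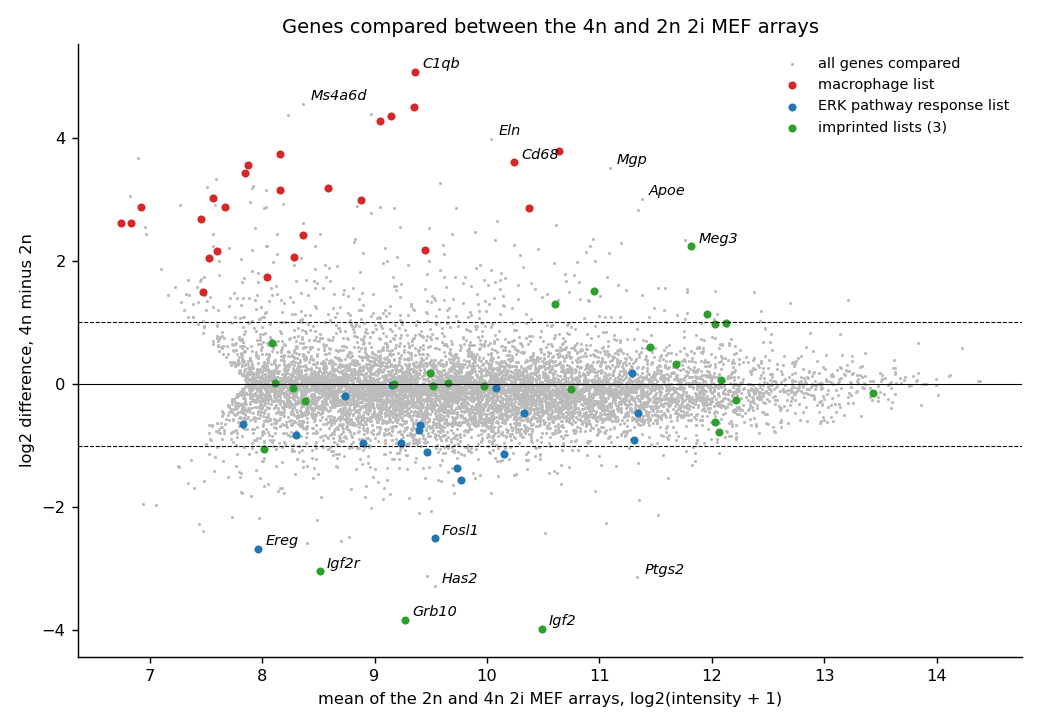
Each point is 1 of the 9035 genes compared, with the mean of the 2n and 4n 2i MEF arrays on the x axis (log2 of intensity + 1) and the log2 difference, 4n minus 2n, on the y axis. Red points are macrophage genes, blue points ERK response genes and green points imprinted genes, and dashed lines mark 2-fold. C1qb stands highest at 5.07 and Igf2 lowest at -3.98.

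Among the lists with at least 5 genes of unequal value, the macrophage list had the highest median difference. C1qb (Entrez Gene 12260), which encodes a chain of complement C1q and is made mainly by macrophages, had 3820.4 intensity units on the 4n array against 113 in the 2n cells and 171 in the control MEFs, a 33.6-fold difference. Fcer1g, the signalling chain of antibody receptors, had 3108 units on 4n against 136 on 2n and 172 on the control array. Tyrobp, the adaptor that passes signals from Trem2 and related receptors, had 2330.4 against 119.6 and 158. In each of these genes the 2n and control arrays lay below their floors, and the 4n array stood alone.

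Of the 40 listed macrophage genes 38 were measured. With no floor applied, 37 were higher on the 4n array and Cd163, a scavenger receptor, was equal. Over all genes with unequal values 44.2% were higher and 55.8% lower by any amount. At least 2-fold higher were 29 of the 38, where 3.03% of genes with unequal values were, and the median of the 37 was 2.62 against -0.03 for all genes with unequal values. Past the floor were 26 members, all at least 2-fold higher. For 22 of them the floor was reached on the 4n array alone, so that count was partly set by the floor. The other 4 were past it on both arrays. These were the lysozyme genes Lyz2 (429 units on 2n, 5913 on 4n) and Lyz1 (491 and 3573), whose near-identical sequences may share signal, the lysosomal glycoprotein gene Cd68 (347 and 4217) and the tetraspanin gene Cd53 (328 and 1479.7). The summed intensity of the 38 probe sets was 4815 for 2n, 40048 for 4n and 5835 for the control MEFs. In a mixed culture, more cells of a type and more RNA per cell cannot be told apart.

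The members ran through the working parts of the cell type. The lineage factor gene Spi1, encoding PU.1, had 69.2 units on 2n and 751 on 4n, and Csf1r, the receptor for the survival factor Csf1, had 143 and 481. Csf1 itself, made by fibroblasts, was lower on the 4n array (5141 and 2723, log2 -0.92). Among phagocytic receptors Msr1 differed by 3.03, Fcgr3 by 3.18, Mrc1 by 2.68 and Trem2 by 2.06. Adgre1, the F4/80 antigen used to stain mouse macrophages, had 44.9 units on 2n and 282 on 4n. Several defining leukocyte genes stayed under the floor on the 4n array too. Ptprc, the CD45 antigen, had 188 units there against 85.2 on 2n, Itgb2 had 175 against 87.6, and Itgam, the CD11b integrin chain, had 83.4 against 70.2.

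**Figure D2:**
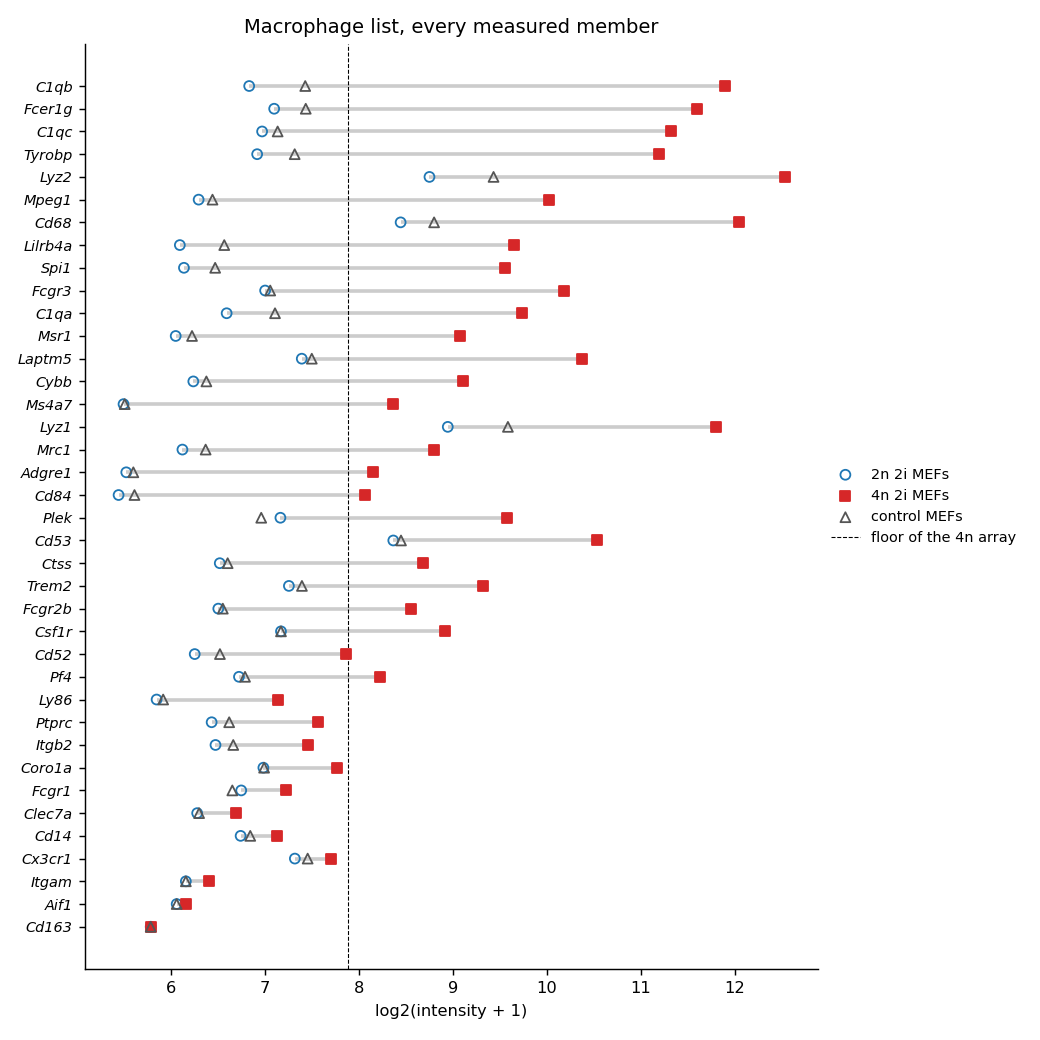
Each row is 1 of the 38 measured macrophage genes, ordered by the difference between arrays, and the x axis gives log2(intensity + 1). Red squares are the 4n 2i MEF array, open blue circles the 2n 2i MEF array and open grey triangles the control MEF array, 1 array each, and the dashed line is the floor of the 4n array. The 4n square lies right of the 2n circle in every row but that of Cd163, where they coincide.

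Since these genes stood together on 1 array, the start regions of the macrophage genes were searched for the core letters of the PU.1 binding motif, GAGGAA, on either strand (TTCCTC on the other), in RefSeq windows from 250 bases before to 50 after the start site in build GRCm38.p6. Of the 26 macrophage genes at least 2-fold higher, 19 had a window, and 14 of these (73.7%) held the letters. Of all 27025 genes with a window 31.3% held them. A gene with several windows counted if any of them held the letters. The 26 came from a list of macrophage markers, so the share describes such markers and not the difference between the arrays. A match is a run of letters and not a measured binding site. The windows of the 3 genes with the largest difference among those with a match are printed 5′ to 3′ with the match in capitals, C1qb (chr4:136886151-136886450, minus strand), C1qc (chr4:136892865-136893164, minus strand) and Cd68 (chr11:69666121-69666420, minus strand).
C1qb: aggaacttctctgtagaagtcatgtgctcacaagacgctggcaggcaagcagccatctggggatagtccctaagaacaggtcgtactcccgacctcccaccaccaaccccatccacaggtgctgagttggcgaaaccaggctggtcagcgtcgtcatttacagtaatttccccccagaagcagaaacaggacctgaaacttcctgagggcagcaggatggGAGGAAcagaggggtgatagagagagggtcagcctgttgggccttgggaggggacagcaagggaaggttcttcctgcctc
C1qc: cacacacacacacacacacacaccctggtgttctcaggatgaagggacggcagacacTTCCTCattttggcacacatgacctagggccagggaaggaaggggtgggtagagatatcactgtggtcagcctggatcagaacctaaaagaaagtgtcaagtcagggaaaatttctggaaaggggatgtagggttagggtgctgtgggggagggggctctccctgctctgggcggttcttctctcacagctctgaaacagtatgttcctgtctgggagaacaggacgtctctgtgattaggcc
Cd68: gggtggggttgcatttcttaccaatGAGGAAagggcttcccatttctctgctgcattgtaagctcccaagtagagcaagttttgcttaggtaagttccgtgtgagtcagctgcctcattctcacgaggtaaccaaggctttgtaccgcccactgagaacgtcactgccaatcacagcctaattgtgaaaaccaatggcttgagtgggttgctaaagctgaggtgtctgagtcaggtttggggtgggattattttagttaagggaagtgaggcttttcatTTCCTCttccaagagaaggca
The windows of C1qb and C1qc held 1 match each, on the sense and the antisense strand in that order, and that of Cd68 1 on each strand. Those of Fcer1g, Lyz2 and Mpeg1, which differed by 4.51, 3.78 and 3.73, held none in these letters.

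Genes outside the macrophage list but known from phagocytes or inflamed tissue were among the 20 with the largest excess. They were Ms4a6d (66.9 units on 2n, 1597 on 4n) and Ms4a6c (32.4 and 423), of a family of membrane proteins of blood cells, Ccl3 (109 and 2287), a chemokine that draws leukocytes, Wfdc17 (64.9 and 1368), and Lilr4b (59.1 and 553), an inhibitory receptor gene close in sequence to the listed Lilrb4a (67.1 and 804). On the control MEF array these 6 genes lay between 36.1 and 106 units. Lists of other blood cells held few readings that could be compared. Exactly equal values, treated as uninformative, were found in 8 of 10 neutrophil, 8 of 10 lymphocyte, 4 of 6 red cell and 5 of 8 mast cell genes measured. No neutrophil gene of 10 measured, no lymphocyte gene of 10 and no red cell gene of 6 reached the floor on either array, and of 8 mast cell genes only the transcription factor gene Gata2 did (541 and 327). Among 9 osteoclast genes Acp5, an acid phosphatase shared with macrophages, was at least 2-fold higher (310.4 and 716), and Ctsk, the collagen-degrading protease, was not (log2 0.23).

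The complement genes that were higher included ones known from phagocytes and ones known from fibroblasts. Receptors and regulators of phagocytes stood out on the 4n array, with C3ar1 at 168 and 1249 units on 2n and 4n, C5ar1 at 70.9 and 262 and properdin, Cfp, at 162 and 771. The C1 components and inhibitor that fibroblasts secrete were higher too, namely C1s1 (59.6 and 610.2), C1ra (106 and 363) and Serping1 (947 and 3228). Masp1, the lectin pathway protease, was lower (1964 and 961). Of 8 complement genes past the floor 6 were at least 2-fold higher, against 3.79% of all genes compared. In 5 of the 6 the floor was reached on the 4n array alone, and with the floor at the 75th percentile 2 were called. Masp1 was the 1 lower, and it lay within 2-fold after quantile normalization or centring. Over the 13 measured with unequal values the median was 0.78. Of 19 genes of lysosomes and lipid handling, 4 were at least 2-fold higher, the lipoprotein gene Apoe (939 and 7542), Gpnmb (2472 and 7053), the cholesterol exporter Abca1 (499 and 1161) and the protease Lgmn (2231 and 4874). The median of the 19 was 0.33, against -0.10 for all genes compared. Macrophage genes stood higher on the same array as these, and their part in the complement and lysosome differences was not tested.

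Imprinted genes held 3 of the 6 lowest values of the whole comparison. Igf2 (Entrez Gene 16002), the fetal growth factor expressed from the paternal allele, had 5699.6 intensity units on 2n and 6870.4 in control MEFs but 361 on 4n, a 15.8-fold deficit. Grb10 (Entrez Gene 14783), a maternally expressed adaptor that dampens insulin and IGF receptors, had 6018 on the control array, 2326 on 2n and 163 on 4n. Igf2r (Entrez Gene 16004), which encodes the maternal-allele receptor clearing Igf2 from the cell surface, had 3048, 1048 and 126 in the same order. The 4n values of Grb10 and Igf2r were below the floor, so their folds of 14.2 and 8.25 against 2n depend on background, while on the 2i ESC array the genes had 1131 and 1891 units. In Grb10 and Igf2r the 2n array lay between the control and 4n arrays, and in Igf2 the 2n and control arrays were close and the 4n array apart.

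Paternally expressed genes whose controlling region is methylated in the egg were partly higher. Of 16 measured, 13 were past the floor, 3 of them at least 2-fold higher and 1 lower, against 3.79% and 2.68% of all genes compared. Airn, the noncoding RNA that runs antisense through Igf2r on the paternal allele, had 846 units on the control array, 993 on 2n and 2444 on 4n. Plagl1, a zinc finger growth regulator, had 1058, 2666 and 5897, and Nnat, a small membrane protein gene, 836, 1166 and 3339. Peg3 (log2 0.99, 3169 and 6312 units on 2n and 4n) and Mest (0.98, 2978 and 5875) lay just within 2-fold. They passed it when the arrays were quantile normalized or centred on the median, which gave 5 higher genes. Not every member went this way. The retrotransposon-derived Peg10 was lower on 4n (-0.62) though its neighbour Sgce was higher (0.33), Ndn was level (0.06), and Nap1l5, at 374 and 179 units, was the member at least 2-fold lower. It was no longer so after centring or with a pseudocount of 16, and with the floor at the 75th percentile it was not compared. The median of the 13 was 0.06.

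Maternally expressed genes under maternal germline methylation showed no common shift beside Grb10 and Igf2r. Of 23 measured, 6 had equal values and 12 were past the floor, and of the 10 compared these were the 2 at least 2-fold lower and none was higher. H13, a signal peptide peptidase, was lower by less (-0.78, from 5615 to 3262 units). The 7 others compared lay between Cd81 at -0.15 and Atp10a at 0.17, and the median of the 10 was -0.06. Cdkn1c, the cell cycle inhibitor of the Kcnq1 cluster, lay below the floor on both arrays (220.3 and 184 units). Where germline methylation comes from the sperm, Meg3, a noncoding RNA of the Dlk1 cluster, was 4.71-fold higher on 4n (1661 units on 2n, 7831 on 4n, 3412 on the control array), where its neighbours Rian (0.66) and Dlk1 (0.60) were higher by less than 2-fold and Rtl1 and Dio3 were under the floor.

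**Figure D3:**
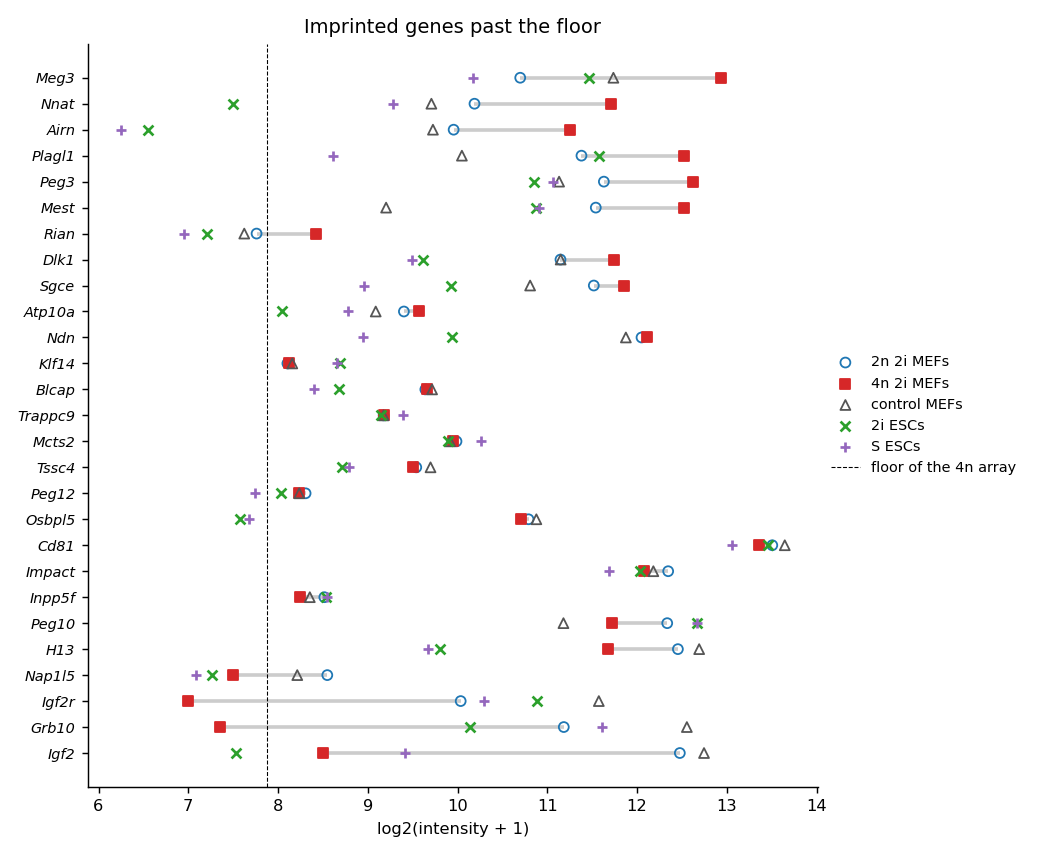
Each row is 1 of the 27 imprinted genes past the floor with unequal values, ordered by the 4n minus 2n difference, and the x axis gives log2(intensity + 1). Symbols are the 5 single arrays, with red squares for 4n 2i MEFs, open blue circles for 2n 2i MEFs, open grey triangles for control MEFs, and a cross and a plus for the 2i and S ESCs. Meg3 is at the top with 2.24 and Igf2, at the bottom, is 15.8-fold lower on the 4n array.

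The remaining insulin-like growth factor genes were uneven. Igf1, the second ligand of the same receptor, was 5.04-fold higher on the 4n array (477 units on 2n, 2408 on 4n, 384 on the control array). Binding proteins that hold these ligands outside the cell were higher as well, with Igfbp4 at 874 and 4452, Igfbp2 at 379 and 1317, Igfbp3 at 3156 and 8878 and Igfbp5 at 2878 and 5989 on 2n and 4n. Igfbp6 (log2 0.30) and Igfbp7 (-0.28) lay within 2-fold, as did the receptor gene Igf1r (-0.28) and its substrate Irs1, whose probe sets disagreed in sign. Stc1, a secreted inhibitor of the protease that frees IGFs from their binding proteins, was lower (471 and 219). Of the 14 genes of this axis compared, 5 were at least 2-fold higher (3.79% of all genes compared were) and 1 lower (2.68%). That 1, Stc1, was no longer among the lower genes after centring, nor under a 75th-percentile floor.

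Genes of the response to growth factors were lower on the 4n array. Of 20 measured ERK response genes all passed the floor. Of the 19 with unequal values 6 were at least 2-fold lower and none higher, against 2.68% and 3.79% of all genes compared. By any amount 18 were lower, where 62.3% of all genes compared were. The median of the 19 was -0.83. The growth factor gene Ereg had 633 units on 2n, 97.9 on 4n and 1079 on the control array, and its relative Hbegf, which also activates the EGF receptor, 1495, 506 and 2059.9. Fosl1, a subunit of the AP-1 transcription factor, had 1768, 311 and 2098. The phosphatases Dusp4 (log2 -1.36) and Dusp6 (-1.14) and the inhibitor Spry4 (-1.11), which feed back on the pathway, completed the 6. Myc (-0.92), Fos (-0.95) and Egr2 (-0.95) came close to 2-fold. Spry1 (0.17), Spry2 (-0.06) and Etv5 (-0.02, with a second probe set at 0.31) were nearly level. In all 6 genes at least 2-fold lower the control array lay above the 2n array, so that the 4n array was the lowest of the 3.

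Genes of inflammation and of secreted signals differed in both directions. Ptgs2, the inducible enzyme of prostaglandin synthesis, had 7667 intensity units on 2n and 7324 on the control array against 867 on 4n, and Ptges, the next enzyme of that path, had 875 and 444 on 2n and 4n. Has2, which makes hyaluronan, had 2317, 2174 and 237 on 2n, control and 4n. Inhba, whose product forms activin A, had 6128 units on 2n and 1400.0 on 4n, and Fst, which binds activin, had 1712 and 721. The leukocyte attractants Ccl7 (5298 and 1835), Ppbp (2075 and 239) and, within 2-fold, Ccl2 (3732 and 2065) were lower on 4n, as was Plaur, the urokinase receptor (1461 and 469.5). The 4n values of Has2 and Ppbp lay just above that array's floor of 235 units, so their differences are uncertain in size. Other genes were at least 2-fold higher. Saa3, an acute phase protein gene, had 84.4 and 665 units, the alarmin gene Il33 121 and 574, the stromal chemokine Cxcl12 1509 and 3208, and Cxcl15 80.3 and 440.2. Of 10 genes compared in the interleukin 1, NF-kappa-B and prostaglandin list, 2 were at least 2-fold higher and 2 lower. Over all genes compared these shares were 3.79% and 2.68%. In 2 of the 10 the floor was reached on the 4n array alone and in 1 on the 2n array alone, so these counts were partly set by the floor. With no floor, 3 of the 18 with unequal values were at least 2-fold higher and 3 lower. The median of the 18 was -0.09. Of 10 compared in the chemokine list, which did not hold Ppbp, the counts were 3 higher and 1 lower and the median was 0.46. In 3 of the 10 the floor was reached on the 4n array alone. Over the 20 measured with unequal values the median was 0.33.

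Cell division genes were lower as a group by moderate amounts. All 23 measured genes of DNA replication and mitosis had a smaller value on 4n, against 62.3% of all genes compared, and the median was -0.65. By at least 2-fold 2 were lower (2.68% of all genes compared were), and 1 when the arrays were quantile normalized or centred on the median. The 2 were Rrm2, the ribonucleotide reductase subunit that supplies DNA precursors (4061 units on 2n, 1663 on 4n, 4744 on the control array), and Mki67, the proliferation antigen Ki-67 (2594, 1236 and 1807). The helicase subunits Mcm4 (-0.92) and Mcm3 (-0.90), the kinesin Kif11 (-0.83) and the kinase Aurka (-0.78) followed, and Pcna (-0.16) and Ccnb2 (-0.11) differed least. Uhrf1 (-0.82) and Dnmt1 (-0.77), which copy DNA methylation behind the replication fork, were lower by similar amounts, and the de novo methyltransferase gene Dnmt3a was higher (0.83). No gene of the DNA methylation machinery was 2-fold apart among 9 compared.

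Of 17 genes compared in a list of p53 targets and Cdkn2 cell cycle inhibitors, 15 were lower by any amount, where 62.3% of all genes compared were. The median of the 17 was -0.59. At least 2-fold lower were 3, all known p53 targets, where 2.68% of all genes compared were. These were Mdm2, which targets p53 for destruction (3647 units on 2n, 1093 on 4n, 3533 on the control array), Perp, of cell junctions (1208, 486 and 2198), and Btg2, an antiproliferative gene (2104, 955 and 1035). Zmat3 (-0.99), Aen (-0.97) and Eda2r (-0.96) lay close behind, and Sesn1 (0.75) and Bbc3 (0.35) were higher. In Mdm2, Zmat3, Aen and Eda2r the 2n and control arrays were close together and the 4n array below them. Among metabolic lists the medians were -0.48 for 13 genes of cholesterol and fatty acid synthesis, all of them lower, -0.34 for 18 of glycolysis and hypoxia and -0.43 for 14 NRF2 targets, where the quinone reductase Nqo1 was the gene at least 2-fold lower (855 and 301).

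**Figure D4:**
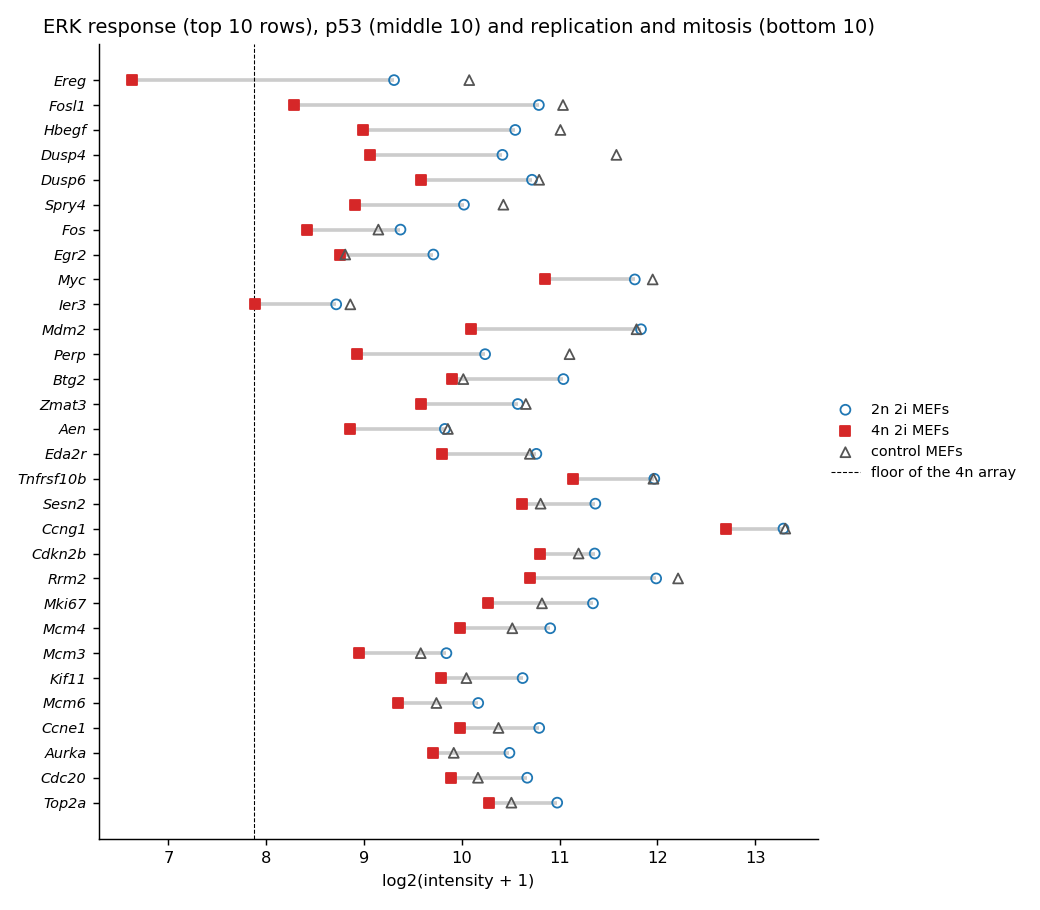
Rows give the 10 lowest genes, by 4n minus 2n difference, of each of 3 lists, and the x axis gives log2(intensity + 1). Red squares are the 4n 2i MEF array, open blue circles the 2n 2i MEF array and open grey triangles the control MEF array, 1 array each, and the dashed line is the floor of the 4n array. The 4n square lies left of the 2n circle in all 30 rows, as the choice of the lowest genes requires, and Ereg alone lies below the floor.

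A minority of extracellular matrix genes were higher on the 4n array by large amounts. Of 24 compared in a matrix list beyond the fibroblast markers, 5 were at least 2-fold higher (3.79% of all genes compared were) and none lower, with a median of 0.42. Eln, which encodes elastin, had 4189 intensity units on 4n against 263 on 2n and 261 on the control array, a 15.9-fold difference. Mgp, a matrix protein that inhibits calcification, had 7378, 644 and 214 in that order. The small proteoglycans that coat collagen fibrils were higher in Lum (896 on 2n, 3969 on 4n), Fmod (1013 and 2844) and, within 2-fold, Dcn (log2 0.82), Prelp (0.95) and Ogn (0.94). Col14a1, a fibril-associated collagen, had 618 and 1991 units, and Col10a1, known from cartilage, 354 and 1914. Some of these genes were not members of the matrix list. Mgp was in no list, Lum and Dcn were in the fibroblast list and Col10a1 was in that of cartilage and bone. Of 4 cartilage and bone genes compared, Col10a1 was at least 2-fold higher and 3 lay within 2-fold. The fibre-building genes Loxl1 (0.44) and Fbn2 (0.14) lay within 2-fold. The large proteoglycan Vcan, a partner of hyaluronan, was lower (-0.89).

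Proteases and fibroblast subtype markers differed one by one. Mmp12, the elastase of macrophages, had 95.6 and 698 units on 2n and 4n, and Mmp13, a collagenase, 321 and 1224. The surface protease Fap (247 and 878) and the microfibril gene Mfap5 (877 and 1924) were higher, and S100a4, also called fibroblast-specific protein, was lower (4999 and 1356, with 7578 on the control array). Of 24 fibroblast markers compared, 3 were at least 2-fold higher, 1 lower, and the median was 0.12. Over all genes compared, 3.79% were at least 2-fold higher and 2.68% lower. Secreted Wnt antagonists were among the higher genes, with Sfrp2 at 1039 and 4539, Sfrp4 at 344 and 996 and Sfrp1 at 1608 and 4388 units. The Wnt amplifier Rspo3 was higher (412 and 994) and the ligand Wnt5a lower (2113 and 809). Of 29 genes compared in the TGF-beta, BMP and Wnt list, 5 were at least 2-fold higher and 5 lower, against the same 3.79% and 2.68%. The lower genes were Bmp5 (-1.25) and the BMP antagonist Grem1 (-1.12) beside Inhba, Fst and Wnt5a.

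Markers of nerve-associated glia and most of those of mesothelium had larger values on the 4n array. Cdh19, a cadherin of Schwann cell precursors, had 101 units on 2n, 589 on 4n and 44.3 on the control array, and Sox10, the transcription factor of neural crest glia, 196, 629 and 176. Erbb3, the receptor for the axonal signal neuregulin, had 159.9, 484 and 124. All 8 measured glial genes were higher by any amount, from Mbp at 0.09 to Cdh19 at 2.53, where 44.2% of all genes with unequal values were. Past the floor, 5 were at least 2-fold higher against 3.79% of all genes compared, and 1 with the floor at the 75th percentile. Of the 5, 4 reached the floor on the 4n array alone, and Ngfr was past it on both (578 and 1598). Of 12 mesothelial genes, 10 were higher and 1 was lower, Krt19 (-0.26), with a median of 0.75. Beyond 2-fold were Nkain4 (458 and 1152), Msln (476 and 1056) and Gpm6a (207 and 417). Upk3b had 1195 and 2387 units on 2n and 4n and 160.0 on the control array, so that both 2i MEF arrays stood above the control.

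Of 14 endothelial genes, the defining Pecam1, Cdh5, Tie1 and Vwf had equal values below the floor on the 2 arrays. Eng, a TGF-beta co-receptor also present on fibroblasts, was lower (2011 and 984), Emcn was lower (362 and 179) and Erg higher (128 and 340.2). Contractile genes had a median of 0.01 over 12 compared. The exceptions were the integrin Itga8 (297 and 1726) and the kinase Mylk (306 and 742), while smooth muscle Tagln (0.25) and Cnn1 (-0.24) stayed within 2-fold. Most genes that record position along the body lay within 2-fold. Over all genes compared, 3.79% were at least 2-fold higher and 2.68% lower. Of 22 Hox genes compared 1 was at least 2-fold higher, Hoxd13, of the distal limb, at 97.2 and 325 units, and none lower. Among 33 other positional transcription factors, Meox1, of the somites (189.7 and 1310.2), and Osr2 (275 and 1107) were at least 2-fold higher, and Dlx2 (-1.07) and Tbx18 (-1.04) lower. Macrophage, glial and mesothelial genes were thus high on the same single array as Eln and Igf1, and their part in those differences was not tested.

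Of 5 adipocyte genes compared, 4 had the larger value on 4n and 1 the smaller. With no floor, 5 of the 9 with unequal values were higher and 4 lower, and their median was 0.05. Over all genes compared, 3.79% were at least 2-fold higher and 2.68% lower. Cd36, a fatty acid and scavenger receptor of fat cells and macrophages, had 38.4 units on 2n and 325 on 4n. It was the member at least 2-fold higher, and it reached the floor on the 4n array alone. The transcription factor gene Cebpa (log2 0.88), the fatty acid carrier Fabp4 (0.77) and the lipase Lpl (0.78) lay within 2-fold on the same side. Pparg, the transcription factor of fat cell differentiation, was at least 2-fold lower (1329 and 595). Of 4 neural genes compared, 2 were at least 2-fold lower, Tubb3, a tubulin of neurons (514 and 158), and Nes, an intermediate filament of progenitors (1376 and 663). Stmn2 (-0.45) and Map2 (0.64) lay within 2-fold on opposite sides. Of 12 epithelial genes 8 had equal values, Epcam and Cdh1 among them, and 2 were compared. The basal keratin gene Krt14 (275 and 584 units) was at least 2-fold higher and Krt7 (0.85) lay within 2-fold. Below the floor on both arrays, Krt5 (-0.23) and Dsp (-0.73) were lower. Interferon response genes had a median of 0.43 over 10 compared. In 5 of these the floor was reached on the 4n array alone, and over the 19 measured with unequal values the median was 0.23. The 10 ran from Tap1 at -0.52 to Ifit3 at 0.83, and none was 2-fold apart. Neither was any of 3 genes of antigen presentation or 4 of skeletal and heart muscle, and no gene of liver and gut reached the floor.

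**Figure D5:**
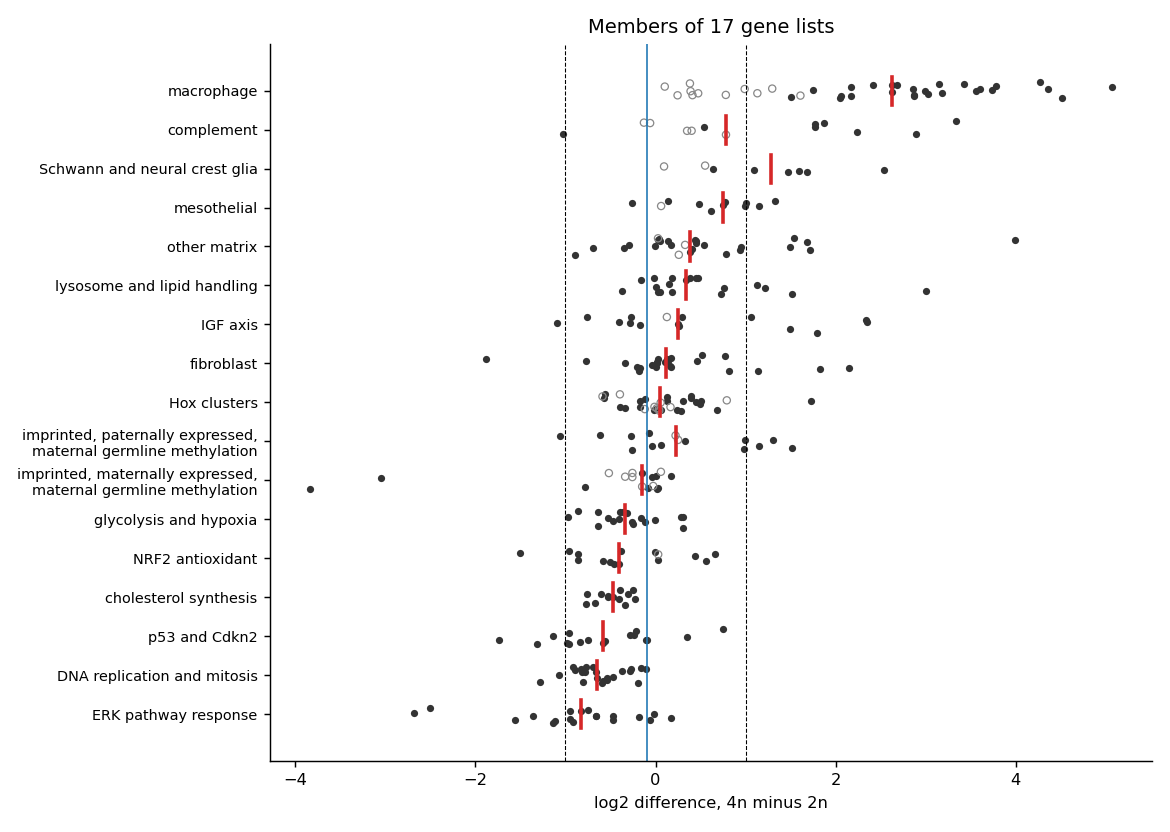
Each point is a gene of 1 of 17 lists, placed by its log2 difference, 4n minus 2n, on the x axis. Filled points were past the floor and open points below it, and dashed lines mark 2-fold. Red bars are the median of each list over its measured genes with unequal values, with no floor. The blue line is the median of all genes compared, which were past the floor (-0.10). With no floor the median of all genes with unequal values was -0.03. The macrophage median is highest, at 2.62, and that of the ERK response genes lowest, at -0.83.

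The remaining genes among the 20 highest were Prss35, a serine protease relative (246 units on 2n, 2382 on 4n), and Olfml1 (78.2 and 738). Those not yet given among the 20 lowest included Pcolce2, which enhances procollagen processing (1003 and 171), Serpinb9b, a protease inhibitor (4662 and 975), Uprt, of pyrimidine salvage (3384 and 631), Prrg4 (1034 and 183) and Adcyap1r1, the receptor of the peptide PACAP (1392 and 325). Lce1h, Lrrc4c, Cck, Gpr149, Cd80 and Gzmd, like Pcolce2 and Prrg4, lay below the floor on 4n, between 76.5 units for Gzmd and 183 for Prrg4. In Lce1h, Cck and Gpr149 the order was control, 2n, 4n, with 2309, 1882 and 1647 units on the control array and 828, 531 and 449 on 2n. Gzmd, a granzyme gene, broke that order, since its 2n value of 406 stood above both 4n and control (63.6).

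On the X chromosome, the gene of the silencing RNA Xist had 1309.9 intensity units on 2n, 4018 on 4n and 2461 on the control array, all well above the 52.2 and 150.5 of the 2i and S ESC arrays. Of 290 X-linked genes compared, 15 were at least 2-fold higher and 14 lower. Together these were 10% of them, against 6.46% of all genes compared and 4.07% to 8.60% on the single autosomes. Their median of -0.10 lay inside the range of the 19 autosomes, from -0.17 on chromosome 16 to -0.02 on chromosome 7.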

How the data were processed

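Per the labels' protocols, RNA of 5 samples was biotin-labelled for whole-transcript arrays. The intensity values, which the authors deposited as 1 table of 28853 probe sets, are on a linear scale. Background correction, summarisation and normalization are not given in the sources used here. Arrays have no sequencing depth, and their number, 1 per group, limits the precision.

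The platform table pairs 21789 probe sets with 1 gene each, and only these name a gene. It pairs 1621 with several and 5443 with none. Current symbols came from RefSeq (GRCm38.p6), matched by Entrez Gene number for 21698 probe sets, and promoter windows from the same build. Where a gene had more than 1 probe set (999 genes), that of highest average over all 5 arrays stood for it. Intensities were compared as log2(value + 1), with a floor at the 50th percentile of gene-named probe sets, equal values left out and a threshold of 2-fold, without a test. The step was tested on simulated data. The 43 gene lists held 811 distinct genes, of which 734 were measured. The comparison and the lists were chosen with earlier results of these data known. Named were the 20 highest and 20 lowest genes past floor and threshold, leaving out clone-named, predicted, receptor-segment and small RNA genes, up to 8 members of each list by size, and any imprinted, X inactivation, Y-linked or macrophage gene. Klf2, Pou5f1, Nanog, Tbx3 and other genes named as below the floor, equal or nearly level fall outside that rule and were chosen after their values were seen. Alternatives were a floor at the 75th percentile or none, quantile normalization, centring on the median, the mean of probe sets, a pseudocount of 16, a threshold of 3-fold and equal values kept. Python 3.11.15, numpy 2.4.6, pandas 2.3.3 and matplotlib 3.10.9 were used.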

Additional observations from a re-analysis of the deposited data

How the results depend on the processing

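No paired analysis was possible because each group had 1 array. With 1 array a side no setting can replace a replicate, and a low intensity, at or near background, limits each fold whose dimmer array was below the floor. Each gene value, list median and count was set against the main one once per alternative, so the same gene or list enters several times. Counted in this way, 1763 values of single genes and 184 list medians moved by less than 1.5-fold. By more moved 1 gene value and 5 list medians, and no value past 2-fold changed sign. The gene was Igf2bp1, whose probe sets disagreed. Among counts of genes, 39 changed by more than 1.5 times, or to or from 0, and 579 did not. Counts of genes higher and lower were 177 and 130 with the floor at the 75th percentile and 153 and 51 at 3-fold. That higher floor also gave medians of 0.66 and -0.78 for the paternally and maternally expressed imprinted lists and 3.67 for macrophage genes, with 12 macrophage, 2 complement and 1 glial gene higher and 0 paternally expressed and 0 IGF axis genes lower. With no floor the medians were 0.050 for adipocyte and 0.78 for complement genes. Quantile normalization and centring each gave 5 paternally expressed genes higher, 1 replication and mitosis gene lower and 0 complement genes lower. Centring gave 0 paternally expressed and 0 IGF axis genes lower, and a pseudocount of 16 gave 0 paternally expressed genes lower. The mean of probe sets and equal values kept as 0 moved none of these values by over 1.5 times.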

Other observations

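Probe sets that the platform table assigns to several genes or to none were not part of the comparison, and their larger differences lay mostly toward the 4n array. Of 662 with several genes, past the floor and unequal, 43 were at least 2-fold higher on the 4n array and 3 lower, and the median log2 difference was 0.07. Of 1209 with no gene, 74 were higher, 19 were lower and the median was 0.08. The genes compared had a median of -0.10.

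Among X-linked genes, 5 were at least 4-fold apart, and they were chosen after their values were seen. Tlr13, a sensor of microbial RNA (log2 difference 2.91), Cybb, an oxidase subunit of phagocytes (2.87), Gpc3, a cell surface proteoglycan that binds growth factors (2.25), and Cfp (2.24) were higher on the 4n array, and Uprt was lower (-2.42). Agtr2, the type 2 angiotensin receptor, lay just inside that size (1.96).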
